A study of Mus musculus with 28 samples.

Results

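A set of 7 genes was followed through 28 bulk RNA-seq libraries of mouse interfollicular epidermis, the skin epithelium between hair follicles. They comprised the Rosa locus transcript Gt(ROSA)26Sor, its flanking genes Setd5 and Thumpd3, and 4 genes selected on their measured levels as markers of 1 mouse line in labelled and total libraries alike, Gypc, Esr1, Baiap2l1 and Vcp-rs. These were 7 of 55536 annotated genes, and all 7 were among the 17493 that passed the filter on low counts. The mice combined a tdTomato reporter at the Rosa locus (RosatdTomato) with a tamoxifen-inducible Cre recombinase (CreER) named Slc1a3CreER, AspmCreER, K14CreER or Dlx1CreER. For each line and skin site, libraries of cells that the labels mark as positive for the line (Slc1a3+, Aspm+, K14+ or Dlx1+, called labelled here) were set against libraries of total interfollicular epidermis from the same line (called total). Back skin gave 3 labelled and 3 total libraries for Slc1a3, 3 and 3 for Aspm, and 2 and 2 for K14. Tail skin gave 2 labelled and 2 total libraries for each of Slc1a3, Aspm and Dlx1. Every mouse carried its CreER and the RosatdTomato allele on a background labelled WT, received tamoxifen on 5 consecutive days at postnatal days 30 to 34, and was taken at postnatal day 49, in telogen, 2 weeks later. No library from mice without CreER, reporter or tamoxifen was analysed here. The labels name the gene that drives each CreER, and they do not say how the labelled cells were separated or whether libraries came from separate animals. The spread that p-values rest on is therefore that between these libraries, which may be technical.

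The Rosa locus is a site on mouse chromosome 6 that is transcribed in nearly all tissues and tolerates insertions, which is why reporters are commonly placed there, usually in the first intron of its noncoding transcript. CreER is Cre fused to a mutated ligand-binding domain of the estrogen receptor, so that tamoxifen lets it reach the nucleus and excise a stop cassette in front of the reporter. Cells that have recombined keep the reporter on, together with their descendants. The interfollicular epidermis is renewed by basal keratinocytes, the Krt5 and Krt14 expressing layer that contacts the dermis.

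Total counts per library ran between 7738262 and 37670589, with a median of 20193388. The library with the fewest counts, back Slc1a3 total replicate 4, also had the fewest genes with a count (14436) and 0.208% mitochondrial counts, and the main Gt(ROSA)26Sor results that rest on it are also given without it. The tail over back value of Gt(ROSA)26Sor in Slc1a3 total libraries also rests on it and is given only with it. The summed level of 4 basal keratinocyte markers (Krt5, Krt14, Trp63, Itga6) was 33495 to 111031 CPM (counts scaled to a common library size by the TMM method), and each of the 4 was detected. The 6 erythroid markers summed to 0.105 to 16.9 CPM and 5 fibroblast markers to 0.968 to 39.2 CPM. In bulk libraries, a smaller number of cells of a type and less RNA per cell cannot be told apart.

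In GRCm38, Gt(ROSA)26Sor (ENSMUSG00000086429) was annotated as an antisense transcript on the minus strand at chr6:113067428-113077333, with 1695 exon bases. Setd5 (ENSMUSG00000034269), which encodes a SET-domain chromatin protein, lay head to head with it at chr6:113077365-113153435, the 5′ ends being 32 bases apart. Thumpd3 (ENSMUSG00000030264), which encodes a tRNA guanine methyltransferase, lay tail to tail at chr6:113046225-113068273. Its annotated span shared 846 bases with that of Gt(ROSA)26Sor, of which 145 were exonic in both, equal to 8.55% of the Gt(ROSA)26Sor exon bases and 2.21% of those of Thumpd3. The library kit did not mark strand, so reads in those 145 bases cannot be assigned to either gene by strand. The transcripts of Gt(ROSA)26Sor differ at their start, and the first exons of Gt(ROSA)26Sor-201 and Gt(ROSA)26Sor-203 are shown because they form the end of the gene nearest Setd5. Both are on the minus strand, in GRCm38 at chr6:113077068-113077210 and chr6:113077174-113077333, in the same order. Capitals mark the 37 bases that the 2 exons share.
Gt(ROSA)26Sor-201: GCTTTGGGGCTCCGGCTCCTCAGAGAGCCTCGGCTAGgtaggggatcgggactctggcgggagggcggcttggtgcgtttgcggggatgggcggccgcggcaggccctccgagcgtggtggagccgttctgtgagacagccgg
Gt(ROSA)26Sor-203: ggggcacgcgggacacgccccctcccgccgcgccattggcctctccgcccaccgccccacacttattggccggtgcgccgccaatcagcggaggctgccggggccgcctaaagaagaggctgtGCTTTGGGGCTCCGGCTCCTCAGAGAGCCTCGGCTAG

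Gt(ROSA)26Sor was higher in the labelled library than in the total library of the same line, site and replicate number in all 14 pairs, and neither flanking gene was. In back skin it had 30.8, 24.8 and 33.6 CPM in Slc1a3 labelled libraries, against 14.9, 10.6 and 4.98 CPM in Slc1a3 total libraries (replicates 1, 2 and 4). In the Aspm line of back skin it had 19.6, 24.4 and 42.4 CPM in labelled libraries, against 17.6, 14.4 and 15.0 CPM in total libraries (replicates 1, 2 and 4). In the K14 line of back skin it had 25.4 and 29.3 CPM in labelled libraries, against 15.0 and 22.5 CPM in total libraries (replicates 1 and 4). Labelled and total values did not overlap in any of these 3 lines, and the gap was narrowest in Aspm and K14. The share of all genes without such overlap is not given here, so this is only a description of small groups. In tail skin the Slc1a3 line had 19.2 and 18.8 CPM in labelled libraries, against 13.6 and 13.2 CPM in total libraries. The Aspm line of tail skin had 18.8 and 15.4 CPM in labelled libraries, against 11.2 and 13.8 CPM in total libraries. The Dlx1 line had 19.2 and 15.9 CPM in labelled libraries, against 15.1 and 10.5 CPM in total libraries. The tail groups did not overlap either, and the labelled tail libraries (15.4 to 19.2 CPM) lay below all 8 labelled back libraries. Both are described under the same limit.

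**Figure D1:**
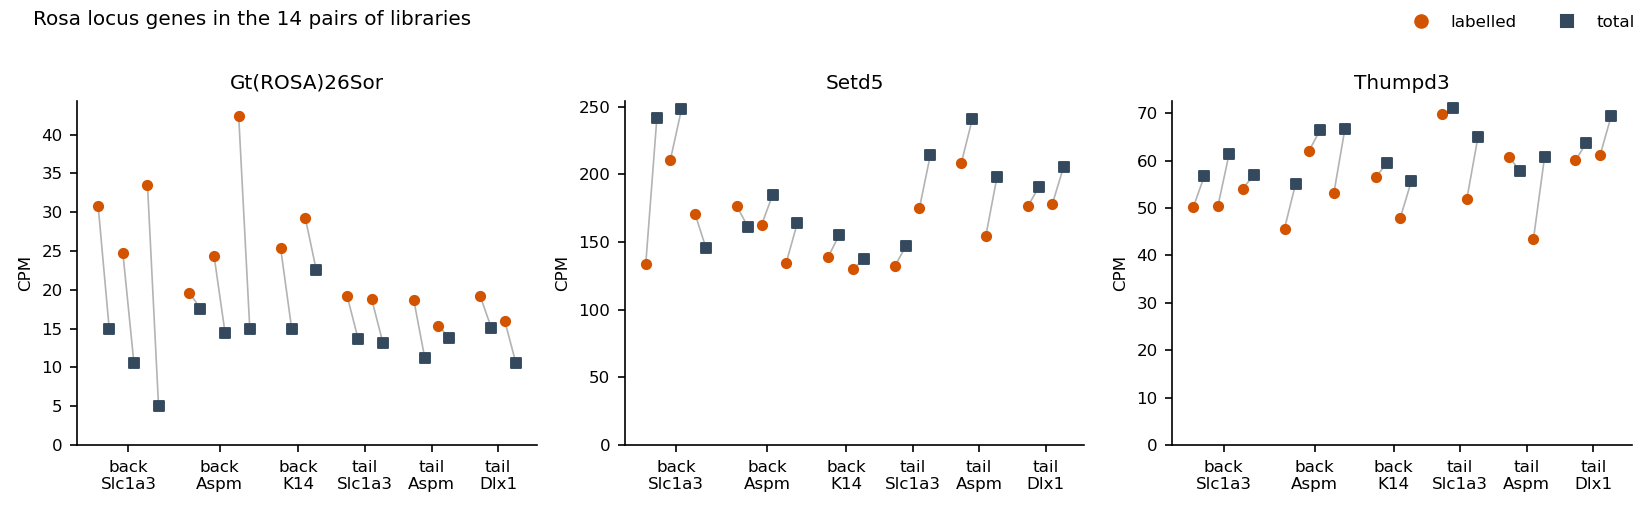
Level of Gt(ROSA)26Sor, Setd5 and Thumpd3 in CPM (vertical axes, from 0) in each library, grouped by site and line; circles are labelled libraries, squares the total library of the same pair, joined by a line. Gt(ROSA)26Sor is higher in the labelled library of all 14 pairs, while Setd5 is higher in 2 and Thumpd3 in 1.

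Over the 14 pairs the log2 ratio of labelled to total CPM of Gt(ROSA)26Sor ran between 0.16 and 2.75, with a median of 0.67. Being higher in all 14 pairs, among them the 3 back Slc1a3 pairs known when the gene was chosen, was seen for 13 of the 17493 genes tested, or 0.0743%. Others of these 13 were Olig1, encoding a basic helix-loop-helix factor, with a mean log2 fold change of 0.55, and Serpinb7, encoding an epidermal serine protease inhibitor, with 0.47. Gja1, encoding the gap junction protein connexin 43, was also among the 13, with a mean log2 fold change of 0.37; these 3 genes are named after their values were seen. The widest ratio of Gt(ROSA)26Sor, 2.75, came from back Slc1a3 pair 4, whose total library is the one with few genes and held 39 counts of the gene. The next widest were 1.50 in back Aspm pair 4 and 1.23 in back Slc1a3 pair 2.

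**Figure D2:**
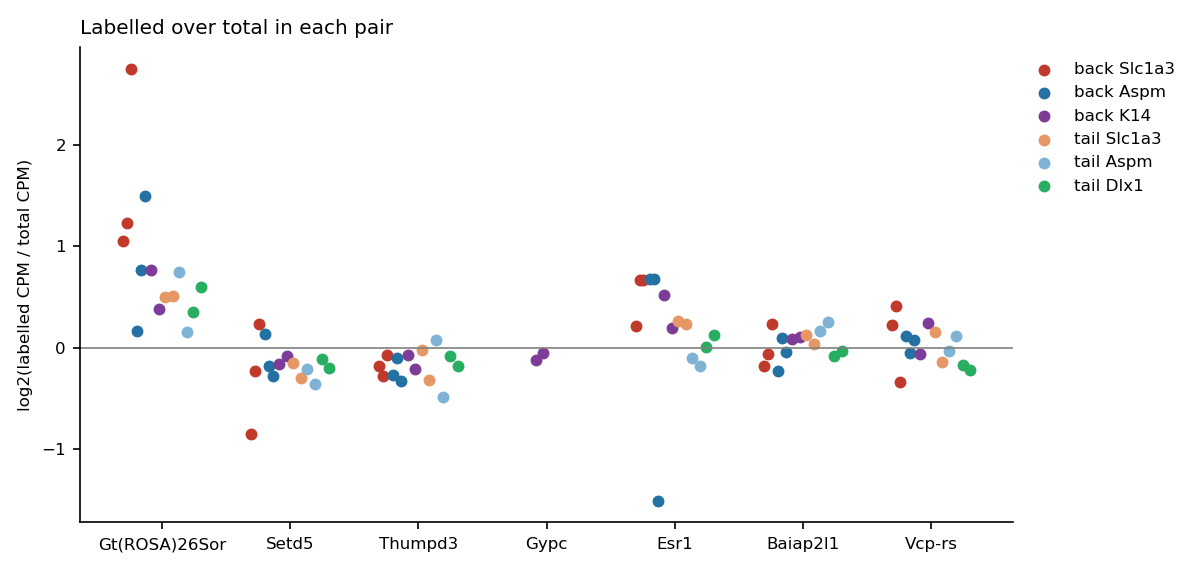
Log2 ratio of labelled to total CPM in each pair (vertical axis) for each of the 7 genes (horizontal axis), coloured by site and line. All 14 points of Gt(ROSA)26Sor lie above 0, between 0.16 and 2.75; for Gypc only the 2 pairs of back K14, where it was measured well above 0, are drawn.

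The edgeR quasi-likelihood test was fitted across all 17493 genes with 1 mean for each of the 12 groups, and p-values were adjusted by Benjamini-Hochberg over all genes, with 0.05 as the threshold. Averaged over the 6 line and site comparisons, Gt(ROSA)26Sor rose in labelled libraries by a log2 fold change of 0.72 ± 0.14 (SE; adjusted p = 0.00421, edgeR), and it was higher in 14 of 14 pairs. In that average 230 genes passed (1.31%), 13 of them higher in labelled libraries (0.0743%). There were 6 genes in both sets of 13. The call was kept with each of the 28 libraries left out in turn and under the 9 other settings run, with log2 fold changes of 0.66 to 0.79. The gene was chosen with its back Slc1a3 result already known, so that comparison is no independent support, and the average of the 5 other comparisons was computed without it. That average was 0.57 ± 0.15 (SE; adjusted p = 0.0828, edgeR), and did not pass, where 0.949% of genes did. With the replicate block, which fits 1 term per pair, it passed (0.56 ± 0.14, adjusted p = 0.0486, edgeR). It passed in 6 of 10 such settings in all, the others being DESeq2's test (adjusted p = 0.02), no low-count filter (0.00337), only the groups compared (0.0236), the fit without back Slc1a3 total replicate 4 (0.015), and the replicate block without back Slc1a3 pair 4 (0.00132). It did not pass with limma-voom (0.57, adjusted p = 0.0526). With each of its 22 libraries left out in turn it passed once, without back Aspm labelled replicate 1 (0.61, adjusted p = 0.04, edgeR). Over all alternatives its adjusted p was 0.00132 to 0.262.

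Taken 1 comparison at a time, Gt(ROSA)26Sor passed in back Slc1a3, where labelled libraries averaged 29.7 ± 4.48 CPM and total libraries 10.1 ± 4.97 CPM (SD, n = 3 each). The log2 fold change there was 1.51 ± 0.29 (SE; adjusted p = 0.0353, edgeR), in a comparison where 19 genes passed (0.109%). The call was lost without any 1 of labelled replicates 1, 2 and 4 and total replicates 2 and 4 (adjusted p = 0.0678 to 0.183, edgeR), and it was kept without total replicate 1 (1.89, adjusted p = 0.0109, edgeR). Without total replicate 4, the library with few genes, the log2 fold change was 1.22 (adjusted p = 0.109, edgeR). The other 5 comparisons had smaller estimates that did not pass: 0.88 ± 0.29 in back Aspm, 0.55 ± 0.35 in back K14, 0.50 ± 0.35 in tail Slc1a3, 0.45 ± 0.35 in tail Aspm and 0.46 ± 0.35 in tail Dlx1 (log2 fold change ± SE). With 1 library left out, back Aspm was 0.49 without labelled replicate 4, back K14 was 0.28 without total replicate 1 and 0.85 without total replicate 4, and tail Dlx1 was 0.21 without total replicate 2 and 0.75 without total replicate 1, all positive and none passing. Few or no genes passed in these comparisons, namely 0% in back Aspm, 0.00572% in back K14, 0.514% in tail Slc1a3, 0.00572% in tail Aspm and 0% in tail Dlx1. In back Aspm, where edgeR called 0 genes, 382 had an unadjusted p under 0.05 and limma-voom called 0 and DESeq2 2. In tail Dlx1, where edgeR also called 0, 446 had an unadjusted p under 0.05 and limma-voom called 30 and DESeq2 34.

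**Figure D3:**
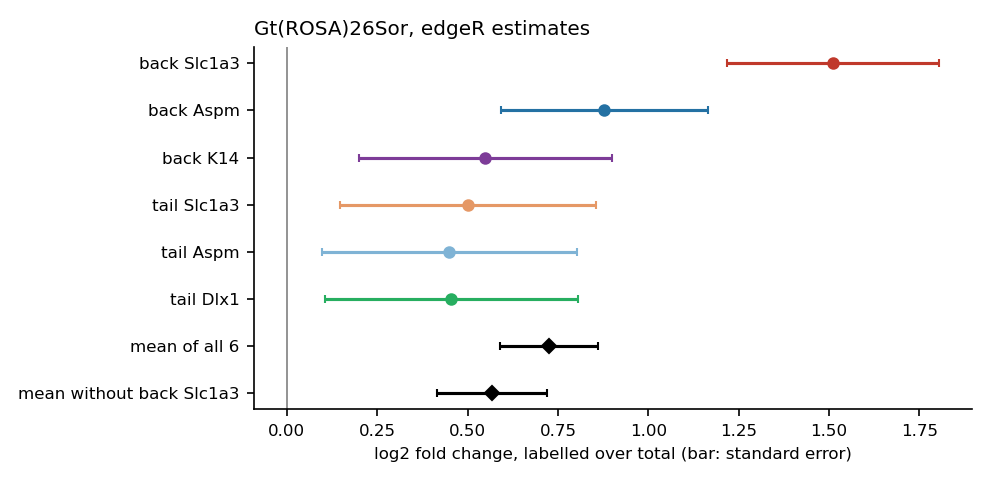
Log2 fold change of Gt(ROSA)26Sor, labelled over total (horizontal axis), as estimated by edgeR in each of the 6 line and site comparisons and in 2 averages; bars are standard errors. All 8 estimates lie above 0; the back Slc1a3 estimate, 1.51, is the largest and the tail estimates lie between 0.45 and 0.50.

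Whether the labelled-over-total difference of Gt(ROSA)26Sor itself differed between lines or sites was tested in 8 contrasts, and 0 passed in edgeR, limma-voom or DESeq2, with 2 at an unadjusted p under 0.05 in edgeR. Over all genes and these 8 contrasts 0.0193% of tests passed. The widest was the tail difference minus the back difference in the Slc1a3 line, at a log2 value of -1.01 ± 0.46 (SE; adjusted p = 1, edgeR). The other with an unadjusted p under 0.05 was the Slc1a3 difference minus the K14 difference in back skin, at 0.96 ± 0.45 (SE; adjusted p = 1, edgeR). Neither had an unadjusted p under 0.05 without back Slc1a3 total replicate 4, where they were -0.72 and 0.67. Set side by side, the 8 labelled back libraries held 19.6 to 42.4 CPM of the gene, and the 6 labelled tail libraries 15.4 to 19.2 CPM.

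Beside these differences, the summed level of the 4 basal keratinocyte markers was higher in the labelled library in 12 of 14 pairs. The summed level of 4 hair follicle bulge markers (Cd34, Lhx2, Sox9, Krt15) was lower in the labelled library in 11 of 14 pairs. Of the other sums, that of 4 endothelial markers was lower in 11 pairs, of adipocyte markers in 9 and of fibroblast markers in 8. Sums of melanocyte and of Langerhans and T cell markers were higher in 10 pairs each, and of erythroid markers in 9. Abundant markers weigh most in such sums, and the share of all genes with such counts is not given here. The part of these sums in the Gt(ROSA)26Sor result was not tested. Slc1a3, which encodes a glutamate transporter and names a line, was higher in the labelled library in 12 of 14 pairs, with a mean log2 fold change of 0.44 ± 0.10 (SE; adjusted p = 0.0248, edgeR). It was 1 of the 13 genes (0.0743%) that passed as higher in the average of the 6 comparisons.

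Setd5 went the other way in most pairs, without passing. It was lower in the labelled library in 12 of 14 pairs, with log2 ratios of -0.85 to 0.23 and a median of -0.19. The share of all genes lower in at least 12 pairs is not given here. In back skin it had 134, 211 and 171 CPM in Slc1a3 labelled libraries, against 241, 248 and 145 CPM in Slc1a3 total libraries. These groups overlapped, and the 2 pairs in which Setd5 was higher in the labelled library were back Slc1a3 pair 4 and back Aspm pair 1. In tail skin it had 208 and 155 CPM in Aspm labelled libraries, against 241 and 198 CPM in Aspm total libraries. Its average over the 6 comparisons was a log2 fold change of -0.20 ± 0.09 (SE; adjusted p = 0.539, edgeR), and none of the 6 passed.

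Thumpd3 was lower in the labelled library in 13 of 14 pairs, tail Aspm pair 1 being the exception, with log2 ratios of -0.48 to 0.07 and a median of -0.18. Being lower in at least 13 pairs was seen for 233 genes, or 1.33%. In back skin it had 50.2, 50.5 and 54.0 CPM in Slc1a3 labelled libraries, against 56.8, 61.3 and 56.9 CPM in Slc1a3 total libraries, with no overlap. The log2 fold change of Thumpd3 there was -0.18 ± 0.14 (SE; adjusted p = 0.889, edgeR), and the share of all genes without overlap is not given here. In the back Aspm line it had 45.7, 62.1 and 53.1 CPM in labelled libraries, against 55.1, 66.5 and 66.7 CPM in total libraries, which overlapped. Its average log2 fold change was -0.17 ± 0.07 (SE; adjusted p = 0.408, edgeR), and none of the 6 comparisons passed. With the replicate block and without back Slc1a3 pair 4, a setting added after seeing the data, the averages of Setd5 (-0.24, adjusted p = 0.00351, edgeR) and Thumpd3 (-0.19, adjusted p = 0.0353, edgeR) both passed.

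Per length, the 3 genes had like levels. The median over 28 libraries was 9.88 CPM per kilobase of exon for Gt(ROSA)26Sor, 9.42 for Setd5 and 8.95 for Thumpd3. Their ranges were 2.94 to 25.0, 7.08 to 13.5 and 6.63 to 10.9 CPM per kilobase, so that Gt(ROSA)26Sor varied most and Thumpd3 least.

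Between lines within a site, 0 of 12 comparisons passed for Gt(ROSA)26Sor, Setd5 or Thumpd3 in edgeR, limma-voom or DESeq2, while 1.58% of all such tests over genes and comparisons passed in edgeR. In edgeR, Gt(ROSA)26Sor and Setd5 each had 1 comparison at an unadjusted p under 0.05 and Thumpd3 had 0. For Gt(ROSA)26Sor it was Slc1a3 over K14 among back total libraries, at a log2 fold change of -0.84 ± 0.32 (SE; adjusted p = 0.103, edgeR). With 1 library left out it ran between -1.22 (adjusted p = 0.0303, edgeR), without back Slc1a3 total replicate 1, and -0.52 (adjusted p = 0.549, edgeR), without back K14 total replicate 4. Without back Slc1a3 total replicate 4 it was -0.55 (adjusted p = 0.24, edgeR). For Setd5 the same comparison gave 0.53 ± 0.22 (SE; adjusted p = 0.131, edgeR). Between sites, Gt(ROSA)26Sor had log2 fold changes, tail over back, of -0.65 in Slc1a3 labelled, 0.36 in Slc1a3 total, -0.75 in Aspm labelled and -0.33 in Aspm total libraries, none passing, where 40.6%, 39.3%, 27.2% and 23.0% of all genes passed in the same order. In edgeR 1 of the 4, Aspm labelled, had an unadjusted p under 0.05, and limma-voom and DESeq2 passed 0. The Aspm labelled value was -0.37 without back Aspm labelled replicate 4 (adjusted p = 0.431, edgeR), and it passed without back Aspm labelled replicate 1 (-0.95, adjusted p = 0.0405, edgeR) and with back Slc1a3 total replicate 4 left out of the fit (-0.75, adjusted p = 0.0313, edgeR). Setd5 and Thumpd3 did not pass between sites in any of the 4 comparisons.

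Within 500 kb of Gt(ROSA)26Sor, apart from that gene, lay 40 annotated genes, of which 23 were tested, Setd5 and Thumpd3 included. None of the 23 passed in the average of labelled over total (edgeR, lowest adjusted p = 0.408), 6 had positive and 17 negative estimates, and their median log2 fold change was -0.10, against 0.00 (0.0025) over all genes. The 1 estimate as high as that of Gt(ROSA)26Sor was 0.73, for Gm43935, a predicted gene at a median of 0.109 CPM (adjusted p = 0.921, edgeR). Of the 23, 6 separated at least 1 line from the others of its site in every library, a share near that of all genes (19.4%). Among them were Arpc4, which encodes a subunit of the actin-nucleating Arp2/3 complex (65.5 to 177 CPM over the 28 libraries), and Il17rc, which encodes a subunit of the interleukin 17 receptor (84.9 to 240 CPM).

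**Figure D4:**
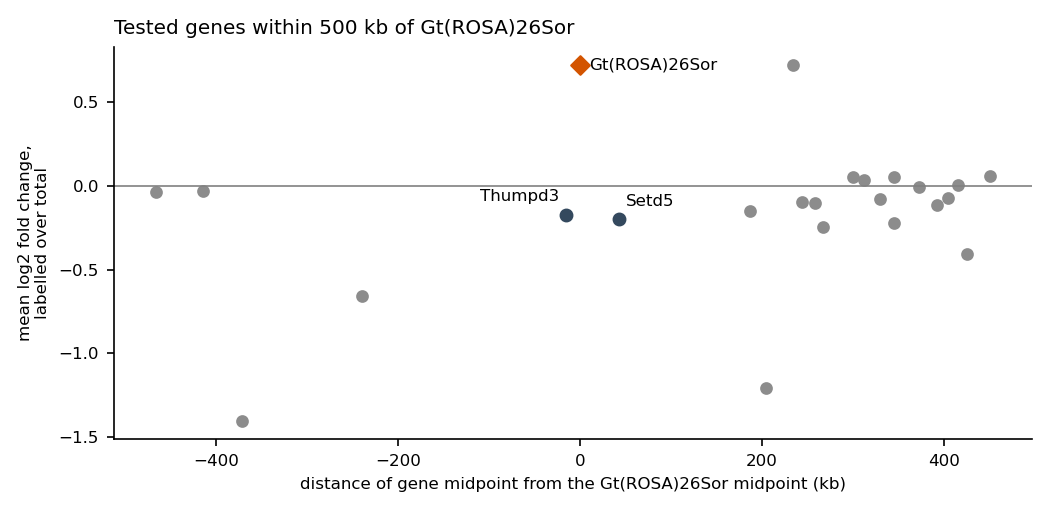
Average log2 fold change, labelled over total, as estimated by edgeR (vertical axis), against the distance of the gene midpoint from that of Gt(ROSA)26Sor in kilobases (horizontal axis), for the tested genes within 500 kb. Gt(ROSA)26Sor (diamond) lies at 0.72, while Setd5 and Thumpd3 beside it lie at -0.20 and -0.17; the 1 other gene near 0.7 is Gm43935, at a median of 0.109 CPM.

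Of the line-marking genes, Gypc separated a line by the widest gap. Gypc encodes glycophorin C, a membrane protein known from red blood cells, where it ties the plasma membrane to the cytoskeleton through protein 4.1. In back skin it had 41.7 and 46.8 CPM in K14 labelled libraries, against 45.5 and 48.4 CPM in K14 total libraries (replicates 1 and 4, 668 to 1458 counts). Each of the other 24 libraries, back and tail, held 7 counts or fewer, at most 0.356 CPM, and 14 of them held 0. The lowest K14 library was thus 117-fold above the highest other back library. The 4 genes were chosen as markers of 1 line in both kinds of library, so this separation is described and not tested. For background, 492 genes (2.81%) lay above the other back lines in all K14 libraries. Among the 468 of these at 5 CPM or more in K14, Gypc had the widest gap.

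Labelled and total K14 libraries had like levels of Gypc, with a log2 fold change of -0.09 ± 0.64 (SE; adjusted p = 1, edgeR), whose interval is wide. The choice of Gypc as a marker in labelled and total libraries alike favoured such likeness. The 6 erythroid markers, hemoglobin genes included, summed to at most 0.858 CPM in the K14 labelled libraries and at most 0.338 CPM in the K14 total libraries, with Hbb-bt and Slc4a1 at 0 in all 4. The highest erythroid sum, 16.9 CPM, was in a back Slc1a3 labelled library, a group in which Gypc was at or below 0.343 CPM. Epb41 and Mpp1, which encode the cytoskeletal partners protein 4.1 and p55, were measured at 34.4 to 105 and 43.8 to 76.5 CPM over the 28 libraries, and neither separated a line. Gypc (ENSMUSG00000090523) lay on chromosome 18 at 32528322 to 32560034 in GRCm38, and of the 7 tested genes within 500 kb of it 1 separated a line, Wdr36, where 19.4% of all genes did.

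Esr1 encodes estrogen receptor alpha, a ligand-activated transcription factor (ENSMUSG00000019768, chr10:4611593-5005614 in GRCm38). In back skin it had 36.4 and 46.9 CPM in K14 labelled libraries, against 25.4 and 40.9 CPM in K14 total libraries. The Slc1a3 line of back skin had 4.80, 9.23 and 4.87 CPM in labelled libraries, against 4.15, 5.81 and 3.06 CPM in total libraries. The Aspm line of back skin had 2.698, 2.65 and 1.83 CPM in labelled libraries, against 1.68, 1.66 and 5.23 CPM in total libraries. The 4 K14 libraries thus lay at least 2.75-fold above every other back library, and the Slc1a3 and Aspm lines overlapped. All 12 tail libraries (15.2 to 33.0 CPM) lay above those 12 back libraries. Low values in those back libraries were part of the choice of Esr1, and the share of all genes so separated is not given here. The tail Slc1a3 and Aspm libraries lay below every K14 library, and the tail Dlx1 libraries lay within the K14 range. In tail skin the Dlx1 line was the highest, at 26.9 and 33.0 CPM in labelled libraries and 26.8 and 30.3 CPM in total libraries. The tail Slc1a3 line had 15.2 to 20.5 CPM and the tail Aspm line 19.7 to 24.2 CPM, and these overlapped. The Dlx1 gap was 1.11-fold, and 467 genes (2.67%) separated that line in the same direction.

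Between sites Esr1 is described without a test, because its choice as a gene high in back K14 rested on low values in the other back lines. In Slc1a3 labelled libraries it averaged 19.4 ± 1.60 CPM in tail skin (SD, n = 2) and 6.30 ± 2.54 CPM in back skin (SD, n = 3), a log2 fold change of 1.61 ± 0.36 (SE). In Slc1a3 total libraries the log2 fold change, tail over back, was 1.88 ± 0.37 (SE). In Aspm labelled libraries it was 3.09 ± 0.38 (SE), and in Aspm total libraries 2.97 ± 0.38 (SE). Tail and back libraries of these 2 lines did not overlap, and the share of all genes for which this holds is not given here. Beside this, the sum of the 4 listed bulge markers, Krt15 included, was 12618 to 19073 CPM in back libraries and 2259 to 4810 CPM in tail libraries. It is not given by gene, and its part in the Esr1 difference was not tested.

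Labelled and total libraries differed little in Esr1, which its choice as a marker in both kinds of library favoured. It was higher in the labelled library in 11 of 14 pairs, and the share of all genes with such a count is not given here. Its average log2 fold change was 0.13 ± 0.15 (SE; adjusted p = 0.982, edgeR), and none of the 6 comparisons passed. The counts are totals per gene and do not say which exons the reads came from. Of its partners, Esr2 (estrogen receptor beta) and Gper1 (a membrane estrogen receptor) did not pass the low-count filter and reached 0.466 and 0.377 CPM. Pgr and Greb1, known estrogen receptor targets in reproductive tissues, reached 0.746 and 6.35 CPM, and neither separated a line. Greb1, at a median of 0.143 CPM, passed in 4 within-site comparisons in edgeR: it was lower in tail Slc1a3 labelled than in tail Slc1a3 total libraries, lower in tail Slc1a3 labelled than in tail Dlx1 and tail Aspm labelled libraries, and higher in back Slc1a3 total than in back K14 total libraries. Of 6 tested genes within 500 kb of Esr1, 1 separated a line, Gm21781, against 19.4% of all genes.

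Baiap2l1 showed 3 tiers of level rather than a mark of 1 line. It encodes an I-BAR domain protein that couples curved plasma membrane to actin (ENSMUSG00000038859, chr5:144264526-144358112 in GRCm38). In back skin it had 812 and 761 CPM in K14 labelled libraries, against 764 and 709 CPM in K14 total libraries. The Slc1a3 line of back skin had 40.4, 503 and 327 CPM in labelled libraries, against 45.7, 524 and 278 CPM in total libraries (replicates 1, 2 and 4). Both libraries of back Slc1a3 pair 1 thus lay with the Aspm line and the other 4 between Aspm and K14. The Aspm line of back skin had 49.99, 51.3 and 44.3 CPM in labelled libraries, against 58.6, 48.0 and 45.6 CPM in total libraries. Within its line and site, back Slc1a3 pair 1 lay at least 4-fold below the rest in 1 of 17493 genes (0.00572%), and that gene was Baiap2l1, with a 6.08-fold gap. The 4-fold cut was set after seeing the data, so this share is only a description.

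In tail skin Baiap2l1 had 29.3 and 34.6 CPM in Aspm labelled libraries, against 26.1 and 29.1 CPM in Aspm total libraries. The tail Slc1a3 line had 303 and 322 CPM in labelled libraries, against 277 and 315 CPM in total libraries, and the Dlx1 line 284 and 321 CPM, against 301 and 329 CPM. The Slc1a3 and Dlx1 lines overlapped, and every Aspm library lay at least 8.01-fold below them. All Aspm libraries lay below the other tail lines in 57 genes (0.326%), and among the 37 of these at 5 CPM or more in the other lines Baiap2l1 had the widest gap. In back skin 10 genes (0.0572%) lay below the other lines in all Aspm libraries, and Baiap2l1 was not among them because of back Slc1a3 pair 1. In back K14 it separated upward with a gap of 1.35-fold, the 4th widest of 468.

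Labelled and total libraries of a pair agreed closely in Baiap2l1. Its choice as a marker in labelled and total libraries alike favoured both this likeness and a wide spread between lines, so they are only described. The log2 ratio of labelled to total ran between -0.23 and 0.25 over 14 pairs, while the pair means spanned 4.83 on the log2 scale. The average log2 fold change, labelled over total, was 0.05 ± 0.30 (SE). Between sites the log2 fold change, tail over back, was 0.11 ± 0.71 in Slc1a3 labelled and 0.07 ± 0.71 in Slc1a3 total libraries (± SE). It was -0.60 ± 0.74 in Aspm labelled and -0.88 ± 0.74 in Aspm total libraries (± SE). These 4 differences are given without a test, because the choice of Baiap2l1 rested on its levels in the lines of each site. Their standard errors rest on a spread shared by all groups, the uneven back Slc1a3 line included. All 4 tail Aspm libraries (26.1 to 34.6 CPM) lay below all 6 back Aspm libraries (44.3 to 58.6 CPM). The share of all genes that do so is not given here. The gene lies wholly inside the annotated span of Bri3 on the other strand, with 49 shared exon bases, and Bri3 had 25.8 to 85.0 CPM over the 28 libraries. Its paralogs differed: Baiap2 had 73.1 to 138 CPM and separated no line, Mtss1 had 7.83 to 57.8 CPM and was lower in back K14, and Baiap2l2 reached 0.191 CPM. Of 14 tested genes within 500 kb, 0 passed in the average of labelled over total (lowest adjusted p = 0.069, Lmtk2, edgeR), and 2, Aimp2 and Bri3, separated a line, against 19.4% of all genes.

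**Figure D5:**
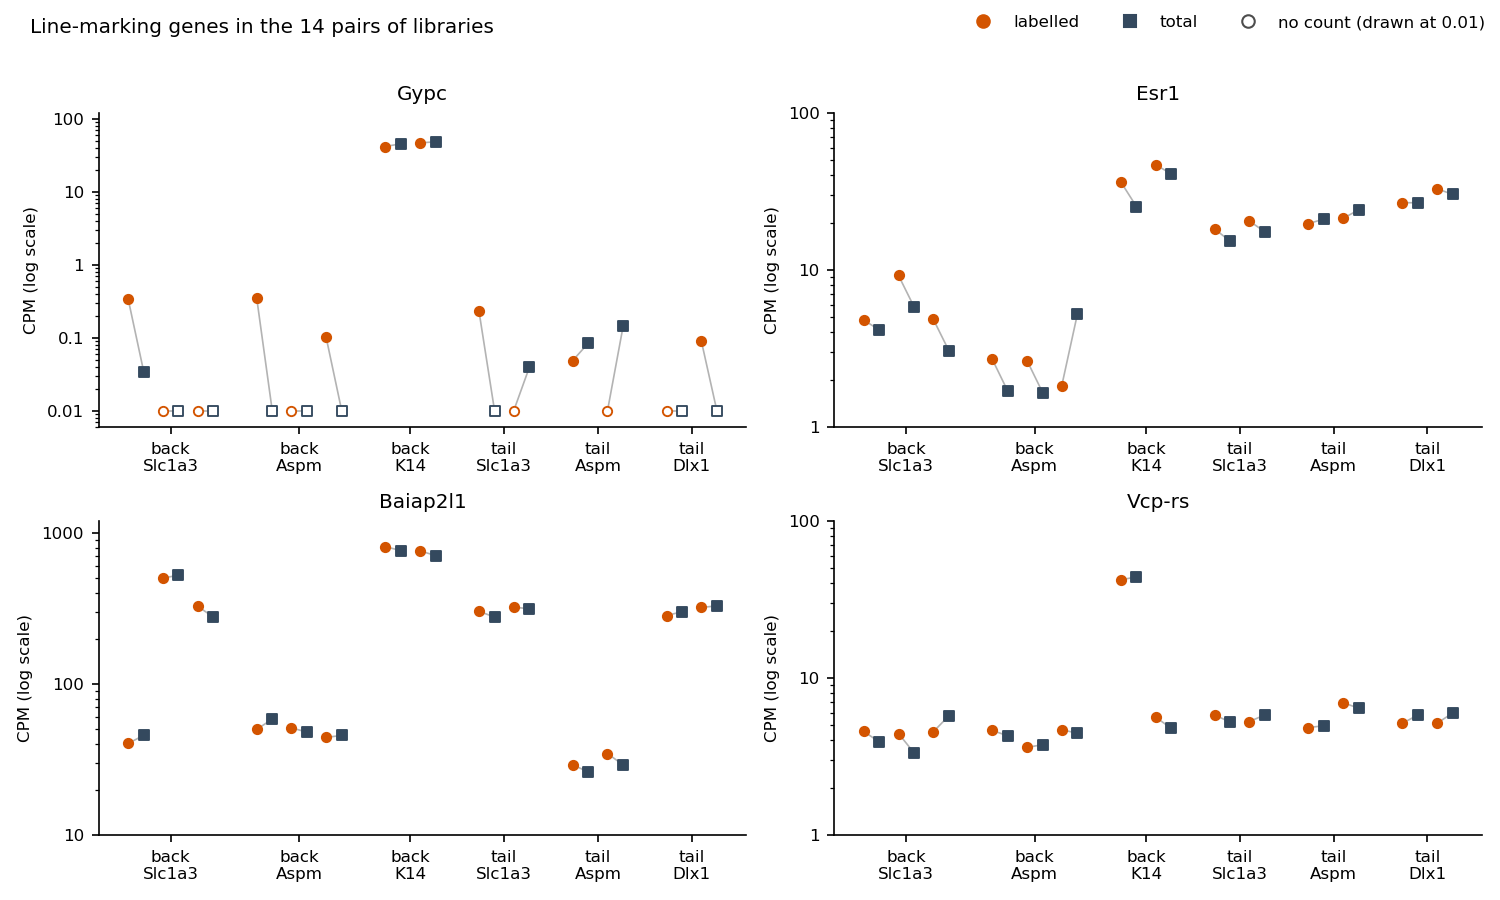
Level of Gypc, Esr1, Baiap2l1 and Vcp-rs in CPM (vertical axes, log scale) in each library, grouped by site and line; circles are labelled libraries, squares the total library of the same pair, and open symbols are libraries with no count, drawn at 0.01. Gypc is at 41.7 CPM or more in the 4 K14 libraries and at 0.356 CPM or less elsewhere, and Vcp-rs is at 42.2 and 44.1 CPM in K14 pair 1 and at 3.33 to 6.96 CPM in the other 26 libraries.

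Vcp-rs did not mark a line, although it was chosen as a gene that does. It is a processed pseudogene of Vcp, whose product is a hexameric ATPase that extracts ubiquitinated proteins (ENSMUSG00000083327, chrX:104345829-104348234 in GRCm38). It had 42.2 CPM in the labelled library and 44.1 CPM in the total library of back K14 pair 1, against 5.64 CPM in the labelled library and 4.78 CPM in the total library of back K14 pair 4. The other 24 libraries had 3.33 to 6.96 CPM, so K14 pair 4 lay among them. In 5 genes (0.0286%) K14 pair 1 lay at least 4-fold above pair 4 at 5 CPM or more. That cut was set after seeing the data, and the gap of Vcp-rs was 7.48-fold. Its average log2 fold change, labelled over total, was -0.01 ± 0.25 (SE; adjusted p = 1, edgeR), and none of the 6 comparisons passed. The choice of Vcp-rs as a marker in both kinds of library favoured this likeness too.

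The pseudogene is a near-identical copy, so its counts are uncertain. Of its 2406 bases, 8 differed from the aligned coding sequence of Vcp, an identity of 99.7%, and the longest run without a difference was 794 bases. The alignment also held 15 gap positions, where the longer coding sequence of Vcp (2421 bases) had bases that Vcp-rs lacked. Vcp itself had 161 to 175 CPM in the 4 K14 libraries and 147 to 179 CPM in the other back libraries, with no separation of K14. Among 120-base windows without gaps, the one with the most differing bases is shown from both genes. It covers coding bases 1420 to 1539, with capitals at the 3 bases that differ.
Vcp-rs: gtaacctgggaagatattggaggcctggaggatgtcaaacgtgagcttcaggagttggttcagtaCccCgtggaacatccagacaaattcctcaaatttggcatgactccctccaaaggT
Vcp: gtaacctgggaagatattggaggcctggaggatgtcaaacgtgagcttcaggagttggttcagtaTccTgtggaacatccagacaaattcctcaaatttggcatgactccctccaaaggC

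Members, genes with a predicted gene name and genes whose highest level was under 1 CPM were left out of a search for like patterns. Among the rest, the genes most like each member were found by Pearson correlation of log2 CPM over the 28 libraries. The mean of each site was subtracted first, and this is a description with libraries that share lines and pairs. For Gt(ROSA)26Sor the most like gene was Cbwd1 (r = 0.79), followed by the pseudogene Itpa-ps1 and Ube2k, both at 0.79. For Setd5 it was Hcfc1 (0.90), followed by Aff1 (0.90) and Nup214 (0.85). For Thumpd3 the likeness was weaker, with Cep112 at 0.66 and Eln and Twistnb at 0.65. For Gypc it was Vapb (0.82), Pdia4 (0.81) and Xbp1 (0.78), and for Esr1 it was Nde1 (0.81), Aldh18a1 (0.75) and Ccnb1 (0.74). For Baiap2l1 it was Arntl (0.76), Tpm3-rs7 (0.75) and Nde1 (0.75), and for Vcp-rs it was Pdia4 (0.71), Arpc1b (0.69) and Hsp90ab1 (0.68). Vcp-rs was high only in K14 pair 1 and Gypc only in the back K14 line, so their r values rest largely on those libraries.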

How the data were processed

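The authors deposited 1 table of whole-number counts per gene (Ensembl identifiers, 55536 in each) for each of 28 libraries. Per the labels' protocols, RNA was extracted with TRIzol, poly(A)-selected and prepared with a kit that does not mark strand. Per the submitters' processing notes, Trim Galore 0.6.0 with cutadapt, FastQC, STAR 2.7.0e and DESeq2 1.26.0 were used and the build was GRCm38 (mm10). How reads shared between genes were counted is not given in the sources used here. All identifiers matched GENCODE M21, from which symbols, positions and transcript sequences were taken.

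Libraries were grouped by the labels' line, site and cell type (12 groups). Genes were kept by edgeR's filterByExpr (minimum count 10; 17493 genes), and counts were scaled by TMM. Members were tested with edgeR 4.0.16 (quasi-likelihood, robust, 16 residual degrees of freedom, R 4.3.3) on 1 mean per group, with Benjamini-Hochberg adjustment over all genes tested; the function was checked on simulated counts with 200 genes changed. The standard error of a log2 fold change was its size divided by the square root of F. CPM was computed by edgeR on the TMM-scaled library size. Tables were made with Python 3.11.15. Libraries of the same line, site and replicate number were taken as pairs. Their deviations from the group means over 10376 genes correlated at r = 0.18 to 0.69 in all 14 pairs. Between lines of a site, r was -0.13 to 0.34. The other pairs lay above that range, but the back Slc1a3 pairs (0.18 to 0.22) and tail Aspm pairs (0.32) lay inside it. Pairing by replicate number is therefore not shown for back Slc1a3 and tail Aspm, and the pair counts and replicate block assume it there. Pairs within back K14 and within each tail line share the same r, so they are not separate evidence.

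The members and lists were chosen with earlier results of these data known. Named genes were the 7 members, genes within 500 kb of Gt(ROSA)26Sor and of each line-marking gene (named where they passed or separated a line), listed paralogs and partners, the genes naming the lines, and the 3 genes most like each member. Alternatives were DESeq2's size factors, library totals, no low-count filter, limma-voom 3.58.1, DESeq2 1.42.0, only the compared groups, the replicate block and each library left out. A further 4 were added after seeing the data: leaving out back Slc1a3 total replicate 4, leaving out back Slc1a3 pair 1, the replicate block without back Slc1a3 pair 4, and the average without back Slc1a3. The fold of 4 and minimum of 5 CPM for a pair standing apart were also set after seeing the data. Some listed partner and neighbouring genes are not reported here.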

Additional observations from a re-analysis of the deposited data

How the results depend on the processing

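For Gt(ROSA)26Sor, labelled over total in back Slc1a3 kept its direction throughout and lost its call with limma-voom (log2 fold change 1.38, adjusted p = 0.15), in a fit of its own groups alone (1.52, adjusted p = 0.997, edgeR) and without back Slc1a3 total replicate 4 (1.22, adjusted p = 0.109, edgeR). With each library of the comparison left out in turn it was 1.22 to 1.89. The cause was not tested. With the replicate block it was 1.57 (adjusted p = 0.0174, edgeR), and the block changed no call other than that of the average of 5 comparisons. The block relies on replicate numbers, whose pairing is not shown for back Slc1a3 or tail Aspm. The other 5 comparisons did not pass, and the average of 6 passed, under every alternative run for them, and no result reversed. The number of genes called in the average of 6 was 230 with edgeR, 191 with limma-voom and 389 with DESeq2, and in back Slc1a3 it was 19, 9 and 43 in the same order. Comparisons between lines or sites cross no pair, so the block was not run for them. Without centring by site, the gene most like the member was the same for Gt(ROSA)26Sor, Setd5, Esr1 and Vcp-rs and another for Thumpd3, Gypc and Baiap2l1. Groups of 2 or 3 libraries limit the single comparisons, and counts of 0 to 7 limit Gypc outside back K14.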

Other observations

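A few genes outside the members, named after their values were seen, also switched between low and high levels by pair. Rpl3-ps1, a processed pseudogene of a ribosomal protein gene on the X chromosome, had 67.4 CPM in the labelled and 76.5 CPM in the total library of back Slc1a3 pair 1, against 6.34 to 16.7 CPM in the other 4 libraries of that line and site. Back Slc1a3 pair 1 is the pair in which Baiap2l1 was low. In the tail Aspm line, where Baiap2l1 was also low, Rpl3-ps1 had 80.1 to 119 CPM, against 8.03 to 16.1 CPM in the other tail lines. Back Aspm pair 1 also combined high Rpl3-ps1, 68.9 CPM in the labelled and 86.0 CPM in the total library, with low Baiap2l1. The 2 genes did not move together everywhere, since back Aspm pairs 2 and 4 had 7.40 to 11.3 CPM of Rpl3-ps1 beside 44.3 to 51.3 CPM of Baiap2l1.

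Prss22, which encodes a serine protease, had 26.8 CPM in the labelled and 53.6 CPM in the total library of back Slc1a3 pair 4, against at most 0.373 CPM in the other 4 libraries of that line and site. It had 19.9 to 28.8 CPM in the tail Dlx1 line, against at most 1.45 CPM in the other tail lines. It was also high in back Aspm pair 2, with 36.1 CPM in the labelled and 39.2 CPM in the total library, and in the 4 back K14 libraries, with 11.8 to 22.8 CPM. In K14 pair 1, where Vcp-rs was high, Rps2-ps13, another processed pseudogene on the X chromosome, had 7.46 CPM in the labelled and 7.88 CPM in the total library, against 0.674 CPM and 0.507 CPM in K14 pair 4. Among the other libraries it exceeded 1 CPM in 2, the back Aspm labelled replicate 2 (5.52 CPM) and the tail Dlx1 total replicate 1 (4.92 CPM), each beside a low library of the same pair. What these pairs share was not tested.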
